A study of Mus musculus with 4 samples.

Results

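The genes described here are 10 liver genes of lipoprotein metabolism: the apolipoprotein genes Apoa1, Apoa2, Apoa4, Apoa5, Apob, Apoc1, Apoc3 and Apoe, the gene Mttp for the microsomal triglyceride transfer protein, and the gene Lcat for lecithin-cholesterol acyltransferase. They were chosen by symbol, and all 10 were found among the 33924 gene symbols of the count files. The data came from livers of male mice at 4 ages, of the strain C57BL6 in the labels (C57BL/6Rj in the study's methods). The labels call mice of 3 months young, of 9 months adult, of 15 months old and of 21 months very old. For each age 1 library was made, from a pool of the RNA of 24 mice, with 4 mice at each of 6 time points spread over the day. All values are thus averages over the day and over the mice, and no replicate exists for any age.

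Hepatocytes export triglycerides and cholesterol in very low density lipoprotein (VLDL), a particle built around 1 molecule of apolipoprotein B. The transfer protein encoded by Mttp loads lipid onto apolipoprotein B while it enters the endoplasmic reticulum. Smaller exchangeable apolipoproteins then join the particle, steer its lipolysis in the blood and mediate the uptake of its remnants by the liver. Apolipoprotein A-I, A-II and the enzyme Lcat belong to high density lipoprotein (HDL), which returns cholesterol to the liver.

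The libraries were built from capped 5’-ends of RNA, so that reads are meant to begin where transcription starts. To show what lies at these starts, the 100 bases before the annotated start of a protein-coding transcript are given for 5 genes on which the results below turn, on the assembly NCBIM37 (mm9). They are the pair of VLDL assembly (Apob, Mttp), the gene with the largest variance among the 10 (Apoa4) and the neighbours Apoc1 and Apoe. Capitals mark matches on either strand to a TATA box (TATAAA), a nuclear receptor half-site (AGGTCA, or TGACCT on the other strand) or an Sp1 site (GGGCGG, or CCGCCC on the other strand).
Apob (chr12:7984354-7984453, plus strand): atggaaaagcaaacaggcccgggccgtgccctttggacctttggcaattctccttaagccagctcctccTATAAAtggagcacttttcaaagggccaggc
Mttp (chr3:137794342-137794441, minus strand): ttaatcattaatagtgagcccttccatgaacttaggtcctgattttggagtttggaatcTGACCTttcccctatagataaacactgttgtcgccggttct
Apoa4 (chr9:46048679-46048778, plus strand): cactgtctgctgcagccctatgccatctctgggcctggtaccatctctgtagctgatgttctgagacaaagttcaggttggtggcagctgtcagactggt
Apoc1 (chr7:20278008-20278107, minus strand): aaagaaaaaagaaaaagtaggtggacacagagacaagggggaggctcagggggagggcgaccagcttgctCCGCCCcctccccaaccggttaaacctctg
Apoe (chr7:20284516-20284615, minus strand): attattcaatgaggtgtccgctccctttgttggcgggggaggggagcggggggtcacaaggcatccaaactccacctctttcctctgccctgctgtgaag

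In windows from 250 bases before to 50 bases after the start, TATAAA occurred in 4 of the 10 genes (Apoa2, Apoa5, Apob and Apoc3) and in 13.4% of the windows of all 22190 protein-coding genes. In Apob it began 31 bases before the start and in Apoc3 29 bases before, but in Apoa5 56 and in Apoa2 240 bases before. For Apoa2 and Apoc3, the 100 bases before the start used overlap an annotated exon of the same gene. The half-site AGGTCA was found in Apoc3 and Mttp, and in 14% of all windows. GGGCGG was found in Apoc1 and Apoe, and in 44.8% of all windows. In Apoe it lay after the start and thus outside the bases shown. 4 longer patterns were searched on both strands as well. None of the 10 windows held these letters: CAAAGTCCA (a site of HNF4, 0.482% of all windows), AGGTCA repeated in the same direction after 1 base of any kind (0.0586%), GTTAAT followed after 1 base by ATTAAC (a site of HNF1, 0.00451%) and TTGCGCAA (a site of C/EBP, 0.221%). Such matches describe the letters only.

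On NCBIM37, 4 of the genes form a cluster on chromosome 9 that spans 43.3 kb, with Apoa1 (46036663 to 46038549), Apoc3 (46041016 to 46043719, minus strand), Apoa4 (46048779 to 46051542) and Apoa5 (46076716 to 46080002). Apoc1 (20274833 to 20278007) and Apoe (20281458 to 20284515) are neighbours on the minus strand of chromosome 7. Apoa2 lies on chromosome 1 (173155185 to 173156510), Apob on chromosome 12 (7984454 to 8023641), Mttp on the minus strand of chromosome 3 (137752819 to 137806352) and Lcat on the minus strand of chromosome 8 (108463451 to 108467282). All are annotated as protein-coding. For Mttp the annotation holds another transcript that starts at the far end of the gene, at 137806352, and the counts do not separate the starts. Gm10680 and Gm16156 overlap Apoa4 and Lcat on the opposite strand, and both had 0 counts in every library. The first 100 bases of the transcripts were also cut into windows of 35 bases, the read length. For all 10 genes, 0 windows matched a place outside the gene on the assembly when 1 mismatch was allowed. Not every window was found in its gene, however. Found were 101 of 220 for Apoa2, 323 of 483 for Apoe, 107 of 132 for Apoc1 and 104 of 132 for Apoa5. For Apob it was 181 of 198 and for Apoc3 238 of 264, and for the other genes all. The windows were cut from spliced transcripts, so that those across an exon junction cannot be found on the assembly. Whether all windows not found are of this kind was not tested. Windows not found matched nowhere, so reads from them may be missing from the counts, which was not tested either.

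The libraries held between 525772 (15 months) and 958586 (9 months) counts on genes, and 3 counts corresponded to between 3.13 and 5.71 cpm (counts per 1000000 counts on genes). The 10 genes together took between 3.39% (9 months) and 3.88% (15 months) of these counts. Levels were expressed as the centered log-ratio (clr), the natural logarithm of a count over the geometric mean of the 8704 genes with a count in every library. A fold between ages is the exponential of the difference between 2 clr levels. Their 95% intervals are exact Clopper-Pearson intervals, which cover counting error only and are not adjusted for the number of comparisons. Differences between mice or between libraries of 1 age could not be measured, and fewer cells of a type cannot be told apart from less RNA per cell. Measured this way, the median fold of 737 genes with a mean count of at least 100 was 0.985 at 9 months, 0.872 at 15 months and 0.963 at 21 months against 3 months. Scaling by library totals moved all folds of 15 against 3 months upward by 0.13 on the log2 scale. With genes at 0 counts in the centre, through a pseudocount of 1, the same folds were shifted by -0.22 and those of 21 against 3 months by -0.12.

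All 10 genes were well above the median mean clr of all genes (-0.21), with mean clr from 2.58 for Mttp to 6.53 for Apoe. Apoe and Apob had the most counts, and at every age Apoe was among the 12 most abundant genes of the library. Their counting intervals in cpm overlapped at 3 and 15 months, and Apoe was above Apob at 9 and 21 months. At the other end of the order, Mttp (from 269.5 to 340.4 cpm) was above Lcat (from 175.4 to 233.6 cpm) at 3 months, Lcat (from 209.9 to 273 cpm) was above Mttp (from 144.9 to 198.2 cpm) at 9 months, and their intervals overlapped at 15 and 21 months. These cpm are not divided by gene length. After division by the length of all exons, the order by mean clr per kb was Apoa2 (6.15), Apoe (5.85), Apoc1 (5.68), Apoa1, Apoc3 (4.60), Apob (3.80), Apoa5 (2.35), Lcat (2.33), Apoa4 (2.26) and Mttp (1.09). Reads of capped ends need not grow in number with length, so this division lowers long genes such as Apob, which was second without it. In this order, Apoa5, Lcat and Apoa4 differed by less than the SD of Apoa4 over the 4 ages (0.257). The plot of cpm by age shows the widest swings for Apoa4 and Mttp.

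**Figure D1:**
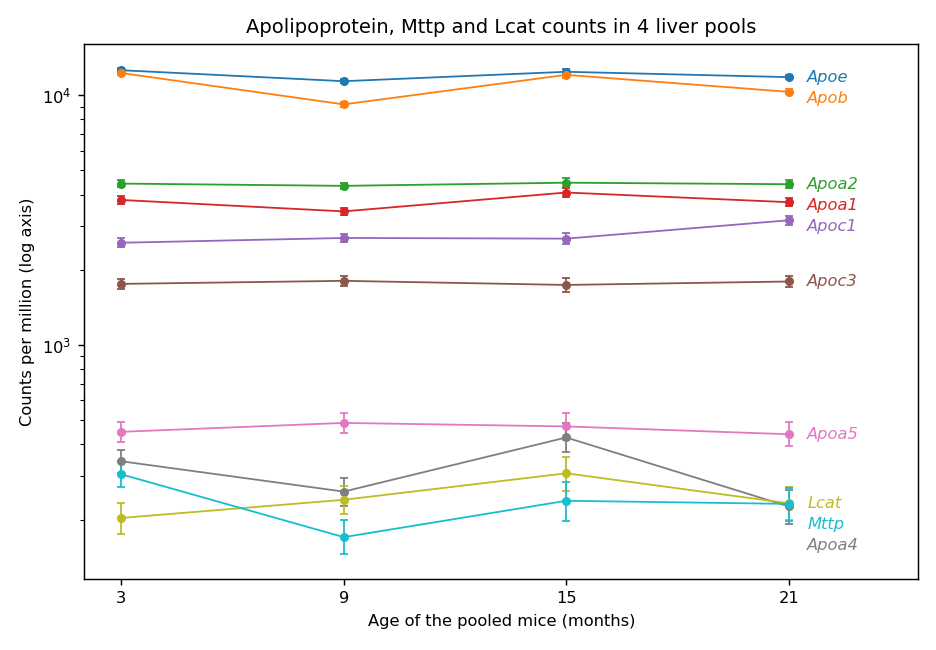
Level in cpm (log axis) of the 10 genes against the age of the pooled mice in months. Points are single libraries, bars are exact 95% counting intervals and lines only join the points of a gene; Mttp lies lowest at 9 months (170 cpm) and Apoa4 lowest at 21 months (225.6 cpm).

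With regard to VLDL assembly, the counts of both genes were highest in the pool of 3 month-old mice. Apob, which encodes the protein core of the particle, had 11715, 8798, 6336 and 7583 counts in order of age. On the clr scale these are levels of 6.57, 6.31, 6.47 and 6.37, so that the 9 month pool was lowest. The fold against 3 months was 0.768 at 9 months (from 0.747 to 0.79), 0.899 at 15 months (from 0.872 to 0.927) and 0.819 at 21 months (from 0.795 to 0.843). By library totals, the 15 month ratio was 0.983.

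Mttp had 290, 163, 125 and 170 counts from the youngest to the oldest pool, or 303.4, 170, 237.7 and 231 cpm. Its counting intervals in cpm at 9 months (from 144.9 to 198.2) and at 3 months (from 269.5 to 340.4) did not overlap. The fold against 3 months was 0.575 at 9 months (from 0.472 to 0.699), the lowest among the 10 genes, 0.717 at 15 months (from 0.576 to 0.887) and 0.741 at 21 months (from 0.61 to 0.899). All 3 older pools were therefore below the 3 month pool by more than counting error. From 15 to 21 months the fold was 1.03 (from 0.816 to 1.31), which counting error alone covers.

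A ratio of 2 genes inside a library needs no scaling between libraries. The ratio of Mttp to Apob counts was 0.0248 in the youngest pool (from 0.022 to 0.0278), then 0.0185 (from 0.0158 to 0.0216), 0.0197 (from 0.0164 to 0.0236) and 0.0224 in the oldest (from 0.0191 to 0.0261). The intervals of 3 and 9 months did not overlap, whereas the intervals of 15 and 21 months overlapped with those of all other ages.

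Apoe and Apoc1 are neighbours that differed in direction against 3 months at 9 and at 21 months. At 9 months, Apoc1 was beyond counting error on the clr scale but not by library totals. Apoe, the ligand for remnant uptake by the LDL receptor and Lrp1, had 12022, 10895, 6518 and 8685 counts, again in order of age, with clr levels between 6.50 and 6.60. Its fold against 3 months was 0.927 at 9 months (from 0.903 to 0.951), 0.901 at 15 months (from 0.874 to 0.929) and 0.913 at 21 months (from 0.888 to 0.939). The 3 month pool was thus slightly above the others on this scale, although the 15 month ratio was 0.986 by library totals.

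Apoc1, whose protein holds back remnant uptake and lipases, had 2451, 2569, 1400 and 2321 counts. The clr level was highest at 21 months with 5.19, against 4.96 at 15 months. At 9 against 3 months the fold was 1.07 (from 1.014 to 1.13), and by library totals 1.045 (from 0.989 to 1.105). The fold of 21 against 3 months was 1.197 (from 1.13 to 1.27), the highest of the 10 genes in this comparison, and that of 21 against 15 months was 1.26 (from 1.18 to 1.35). Within libraries, the ratio of Apoc1 to Apoe was 0.204 in the youngest pool (from 0.195 to 0.213), then 0.236 (from 0.226 to 0.246), 0.215 (from 0.203 to 0.228) and 0.267 in the oldest (from 0.255 to 0.28). The 21 month interval lay above those of all other ages.

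**Figure D2:**
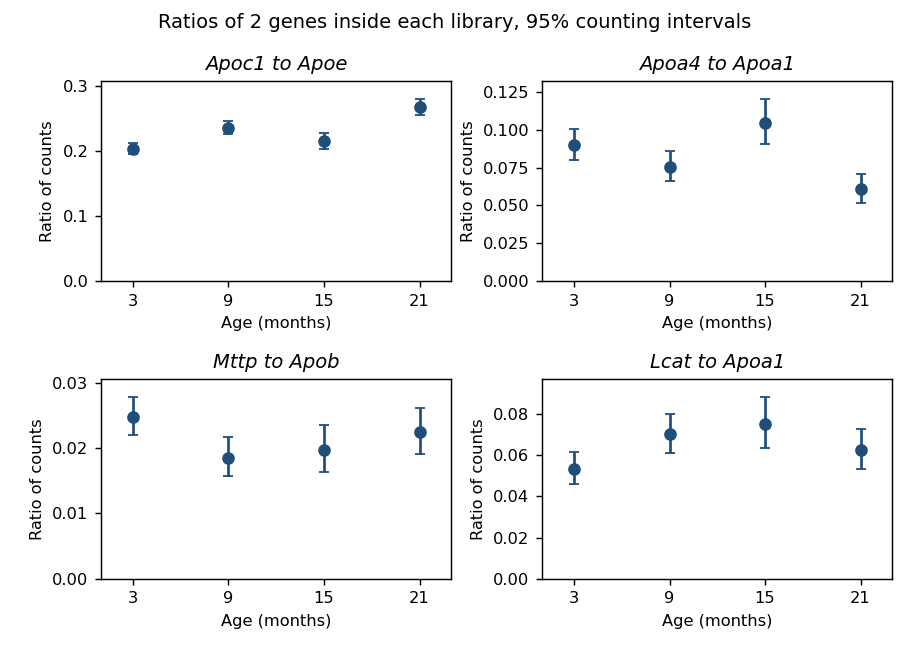
Ratios of the counts of 2 genes in the same library against age in months, on axes that start at 0. Points are single libraries and bars exact 95% counting intervals; the ratio of Apoc1 to Apoe is highest at 21 months (0.267), that of Apoa4 to Apoa1 lowest at 21 months (0.0605) and that of Mttp to Apob highest at 3 months (0.0248).

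In the cluster on chromosome 9, Apoa1, Apoc3 and Apoa5 kept within narrow ranges and Apoa4 did not. Apoa1, the main protein of HDL, had 3636, 3281, 2142 and 2742 counts and the lowest variance of clr of the 10 genes, 0.00121. Its clr levels lay between 5.32 and 5.404, and only the fold at 9 months (0.923, from 0.88 to 0.968) was beyond counting error. By library totals, the 15 month fold of Apoa1 was 1.07 (from 1.015 to 1.13), on the other side of 1. Apoc3, an inhibitor of lipoprotein lipase, had 1678, 1730, 914 and 1320 counts and a fold from 0.906 (from 0.835 to 0.982) at 15 months to 1.05 at 9 months. By library totals the 15 month fold was 0.990 (from 0.913 to 1.07), within counting error. Apoa5, which favours lipolysis of triglycerides, had 429, 467, 248 and 323 counts. Its folds of 1.11, 0.961 and 0.952 at 9, 15 and 21 months were all within counting error.

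Apoa4, made by intestine and by liver and bound to triglyceride-rich particles and HDL, had 327, 248, 224 and 166 counts in order of age. In cpm these were 342.1, 258.7, 426 and 225.6, so that the 15 month pool was highest and the 21 month pool lowest. The fold against 3 months was 0.776 at 9 months (from 0.655 to 0.918), 1.14 at 15 months (from 0.957 to 1.35) and 0.642 at 21 months (from 0.529 to 0.776). Between the oldest pools, 21 against 15 months, it was 0.564 (from 0.458 to 0.692). The ratio of Apoa4 to Apoa1 of the same cluster showed the same order of ages, with 0.0899 in the youngest pool (from 0.0801 to 0.101), then 0.0756 (from 0.0662 to 0.086), 0.105 (from 0.0907 to 0.12) and 0.0605 in the oldest (from 0.0515 to 0.0708). The ratio of Apoc3 to Apoa1 was highest at 9 months with 0.527 (from 0.497 to 0.559) and lowest at 15 months with 0.427 (from 0.395 to 0.461). For Apoa5 to Apoa1 the ratio was 0.142 at 9 months (from 0.129 to 0.157) and between 0.116 and 0.118 at the other ages.

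Of the other HDL genes, Apoa2 was level with age and Lcat was lowest in the youngest pool. Apoa2, the second most abundant HDL protein, had 4228, 4153, 2345 and 3237 counts, or 4423, 4332, 4460 and 4398 cpm, with overlapping counting intervals at all ages. On the clr scale the 15 month pool was at a fold of 0.922 (from 0.876 to 0.97), while library totals gave 1.01. Lcat, the enzyme that esterifies cholesterol on HDL with apolipoprotein A-I as its cofactor, had 194, 230, 161 and 171 counts, or 202.9, 239.9, 306.2 and 232.3 cpm. Its fold against 3 months was 1.21 at 9 months (from 0.997 to 1.48), 1.38 at 15 months (from 1.11 to 1.71) and 1.11 at 21 months (from 0.902 to 1.38). Only the 15 month fold was beyond counting error. The ratio of Lcat to Apoa1 was 0.0534 at 3 months (from 0.0459 to 0.0617) and 0.0752 at 15 months (from 0.0636 to 0.0883), with intervals that did not overlap.

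To compare the genes with the rest of the transcriptome, a change of more than 1.5-fold in clr level was counted in 2974 genes with a mean count of at least 20. At 9 against 3 months, 1 of the 10 genes (Mttp, lower) was past 1.5-fold, where 26.7% of all these genes were past it in either direction, 12.1% higher and 14.7% lower. At 15 against 3 months it was 0 of 10, with 33.4% of all genes (11.6% higher and 21.8% lower; 16.3% and 16.5% when scaled by library totals). At 21 against 3 months it was 1 of 10 (Apoa4, lower), with 29.1% of all genes (12.3% higher and 16.7% lower), and at 21 against 15 months 1 of 10 (Apoa4, lower), with 31% of all genes (18.6% higher and 12.4% lower; 15.6% and 15.7% by library totals). Among the 737 genes with a mean count of at least 100, to which all 10 genes belong, the shares were 15.1%, 21.3%, 12.6% and 12.2%. The median fold of the 10 genes against 3 months was 0.966 at 9 months, 0.936 at 15 months and 0.953 at 21 months. All 3 comparisons share the 3 month pool. No test was possible for a single pair of ages, since each was 1 library.

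Smaller differences were common for genes of this depth. At 9 against 3 months the counting interval lay above 1 for 1 of the 10 genes and below 1 for 5. Of the 737 genes with a mean count of at least 100, 53.6% had an interval without 1 (25.8% above and 27.8% below). At 15 against 3 months it was also 1 above and 5 below, beside 56.4% (14.4% above and 42.1% below), and at 21 against 3 months 1 above and 4 below, beside 47.1% (19.7% above and 27.4% below). At 21 against 15 months, 2 were above and 2 below, beside 43.6% (30.7% above and 12.9% below). Both comparisons with the 15 month pool depended on the scale. By library totals, 3 genes (Apoa1, Apoa4 and Lcat) lay above 1 and 1 (Mttp) below at 15 against 3 months, beside 21.8% above and 29.2% below, and 1 lay above and 5 below at 21 against 15 months, beside 23.1% and 19%. At 9 against 3 months, 0 lay above and 5 below by library totals, beside 22.8% and 30.4%, since the interval of Apoc1 then included 1. At 21 against 3 months the numbers were 1 and 4 by library totals too. Apob, Apoe and Mttp were below the 3 month pool in all 3 comparisons by this measure. For Apob and Apoe at 15 months this depended on the scale, as given above.

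**Figure D3:**
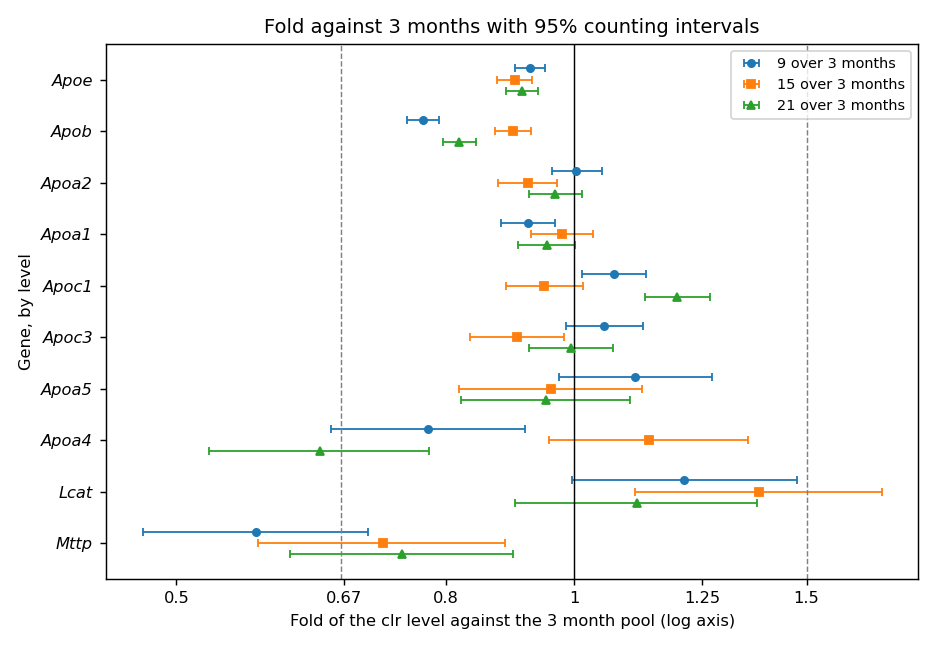
Fold of the clr level of the 10 genes against the 3 month pool (log axis), genes ordered by level. Points are ratios of single libraries with exact 95% counting intervals and dashed lines mark 1.5-fold in either direction; Mttp at 9 months (0.575) and Apoa4 at 21 months (0.642) lie outside them.

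The variance of clr over the 4 ages, with a divisor of 3, served as the measure of variability. It had a median of 0.00759 over the 10 genes, against 0.16 over all 8704 genes, 0.0564 over the genes with a mean count of at least 20 and 0.0264 over those with a mean count of at least 100. Below the last of these medians were 8 of the 10 genes. The exceptions were Apoa4 with 0.0659 and Mttp with 0.0518, of which counting noise accounted for 0.0044 and 0.00587. Lcat followed with 0.0185, Apob with 0.0132 and Apoc1 with 0.0101. The smallest values were those of Apoa1 (0.00121), Apoa2 (0.00156), Apoe (0.00216) and Apoc3 (0.004). For Apoa1, 0.678% of the 737 genes with a mean count of at least 100 had a lower variance, for Apoa2 1.09% and for Apoe 1.76%. These shares depend on depth, since genes with fewer counts carry more counting noise. The mean counts of Apoa1, Apoa2 and Apoe were 2950, 3491 and 9530, and their counting noise was 0.00035, 0.0003 and 0.00011. A low share is thus no measure of stability with age alone. From the highest to the lowest age, Apoa1, Apoa2 and Apoe differed 1.08-fold, 1.09-fold and 1.11-fold, whereas Apoa4 differed 1.77-fold and Mttp 1.74-fold. Which gene was steadiest depended on the libraries and on the scale. Without the 3 month library the smallest variance was that of Apoe (0.000354), and without the 15 month library that of Apoa2 (0.000674). Without the 15 month or the 21 month library, Mttp (0.0746 and 0.0775) was above Apoa4 (0.0503 and 0.036). By library totals the variance was 0.000149 for Apoa2, 0.000312 for Apoc3 and 0.00515 for Apoa1, while Apoa4 and Mttp remained the most variable with 0.081 and 0.0563. The plot of variance against mean clr places all 10 genes to the right of and below both medians of all genes.

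**Figure D4:**
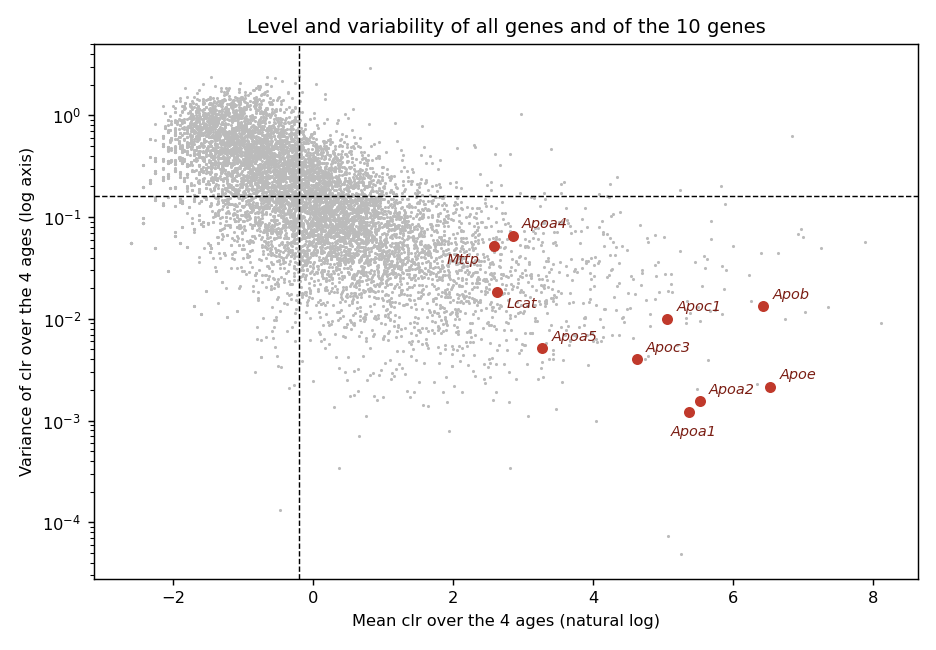
Variance of clr over the 4 ages (log axis) against mean clr (natural log) for 8704 genes in grey and the 10 genes in red. Dashed lines are the medians over all genes (0.16 and -0.21); Apoa1, Apoa2 and Apoe lie near the lower edge of the cloud, and Apoa4 and Mttp lie highest among the 10.

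Across all genes, a trend with age was tested. The quasi-likelihood test of edgeR for a slope on age leaves 2 residual degrees of freedom. Its error is mostly drawn from other genes (63.2 prior degrees of freedom) and not from the scatter of 1 gene. By this test, 6 of 5569 genes passed an adjusted p of 0.05 (0.108%), 3 upward and 3 downward (0.0539% each), and 290 had an unadjusted p under 0.05. DESeq2's Wald test called 0 of 15067 genes, with 123 at an unadjusted p under 0.05. None of the 10 genes was among the 6, and 0 of 10 had an unadjusted p under 0.05 with either tool. The slopes ran from -0.21 (Apoa4, SE 0.26) to 0.17 (Lcat, SE 0.26) on the log2 scale per year, with edgeR adjusted p between 0.998 and 0.999. The SE of the slopes lay between 0.21 and 0.26 for all 10 genes, so that trends of the size seen here were not detectable.

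Around these genes, 5 lists of other lipoprotein genes were examined, with 68 of 70 symbols in the files and 46 with a mean count of at least 20. Of these 46, 6 were over 1.5-fold higher and 5 over 1.5-fold lower at 9 against 3 months (13.04% and 10.87%, beside 12.1% and 14.7% of the 2974 genes). At 15 months the numbers were 5 and 4 (beside 11.6% and 21.8%), and at 21 months also 5 and 4 (beside 12.3% and 16.7%). By library totals they were 4 and 5, 6 and 4, and 6 and 3, and with a pseudocount of 1 at 15 months 2 and 11 (4.35% and 23.9% of the 46, beside 6.42% and 34.3% of the 2974 genes). In the trend test 0 of 64 tested genes passed with edgeR, and 1 (Cd36) had an unadjusted p under 0.05. Genes other than the most counted 3 of a list, and other than those past 1.5-fold at all 3 older ages, are named below after their values had been seen.

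Among the genes of HDL remodelling and efflux, 7 of 10 had a mean count of at least 20. Their median fold on the clr scale was 0.843, 0.738 and 0.834 at 9, 15 and 21 months, beside 0.979, 0.906 and 0.977 over the 2974 genes. Apof, encoding a minor HDL apolipoprotein, had 1668, 1281, 675 and 883 counts, with folds of 0.785 (from 0.73 to 0.845), 0.673 (from 0.614 to 0.736) and 0.669 (from 0.616 to 0.727). All older pools were below the youngest, and each fold stayed within 1.5-fold on the clr scale. The values at 15 and 21 months lay near the threshold. With a pseudocount of 1, the shifts of -0.22 and -0.12 on the log2 scale take both past it. Apom had folds of 1.02, 0.71 and 0.834, and the antioxidant enzyme gene Pon1 had 1.18, 0.734 and 0.961. Scarb1, the HDL receptor gene, was past 1.5-fold at 9 months (0.66, from 0.514 to 0.844) and at 21 months (0.658, from 0.503 to 0.857), with 169, 109, 75 and 88 counts. Both values lay at the threshold: with TMM they were 0.6695 and 0.6697, and by library totals 0.676 at 21 months, which are not past 1.5-fold.

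Among the genes of triglyceride lipolysis, 6 of 9 had such a mean count, with median folds of 1.18, 1.06 and 1.20. Gpihbp1, which carries lipoprotein lipase to the capillary surface, was past 1.5-fold at all 3 ages (1.89, 1.54 and 1.545), but with 27, 50, 25 and 33 counts only the first interval (from 1.16 to 3.15) excluded 1. Apoh had folds of 1.04, 0.809 and 1.05 and Apoc4 of 1.125, 1.075 and 0.851. Reads of Apoc4 and Apoc2 may be split uncertainly, since both genes overlap on the same strand.

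Among the genes of VLDL lipidation and secretion, 11 of 19 had such a mean count, with median folds of 0.935, 0.985 and 1.05. P4hb, the partner subunit of the transfer protein encoded by Mttp, had 547, 462, 308 and 379 counts and folds of 0.864 (from 0.761 to 0.979), 0.936 (from 0.811 to 1.08) and 0.876 (from 0.767 to 1.001). Its 9 month interval lay above that of Mttp. Cideb, which aids lipidation of VLDL, had folds of 1.11, 0.881 and 1.05, and Dgat2, which makes triglycerides, had 0.935, 0.871 and 0.957. Past 1.5-fold were Sar1a (1.58 at 9 and 2.15 at 21 months), Sec23a (0.584 at 9 months), the lipid droplet gene Plin2 (0.608 at 15 months) and Soat2 (0.584 at 21 months). Of these, the intervals of Plin2 (from 0.461 to 0.794) and of Sar1a at 21 months (from 1.202 to 3.94) excluded 1.

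Among the receptors and other genes of uptake, 7 of 10 had such a mean count, with median folds of 0.924, 0.849 and 1.14. Lrp1 had 746, 649, 381 and 589 counts and folds of 0.89, 0.849 and 0.998. The fatty acid transporter gene Cd36 had 34, 50, 41 and 63 counts, with folds of 1.504 (from 0.954 to 2.40), 2.005 (from 1.24 to 3.26) and 2.34 (from 1.52 to 3.67). Its 9 month fold lay at the threshold of 1.5-fold. Cd36 did not pass the edgeR trend test after adjustment. Sdc1 had folds of 1.11, 0.819 and 1.303, and Stab1 of 1.09, 1.03 and 1.509, the last also at the threshold. Hspg2 was at 0.346 at 9 months (from 0.206 to 0.562).

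Among the transcription factors that act on apolipoprotein genes, 15 of 22 had such a mean count, with median folds of 0.874, 0.871 and 1.09. Hnf4a, a main activator of apolipoprotein genes in hepatocytes, had 343, 293, 204 and 291 counts, and its folds of 0.874, 0.989 and 1.07 were within counting error. Rxra had folds of 0.805, 0.694 and 1.005, and Nr1d1 of 1.08, 0.871 and 0.95. Foxo1, an activator of Mttp and Apoc3 in fasting, was past 1.5-fold at all ages (1.88, 1.85 and 2.39) but had only 18, 33, 20 and 34 counts, and its 15 month interval (from 0.928 to 3.70) included 1. The others past 1.5-fold were Nr1h4 (1.51) and Foxa1 (0.449) and Onecut1 (0.66) at 9 months, Nr5a2 (1.54), Foxa1 (0.324), Nr1h3 (0.453) and Srebf1 (0.597) at 15 months, and Nr5a2 (0.632) and Cebpa (0.546) at 21 months. The intervals of Onecut1 and of both values of Nr5a2 included 1. Nr1h4 and Onecut1 lay near the threshold at 9 months. Library totals moved all folds of 9 against 3 months by -0.036 on the log2 scale, which takes Nr1h4 below 1.5-fold. With TMM the shift was 0.022, after which Onecut1 is not past it.

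Marker genes of cell types were summed per library. The 8 hepatocyte markers were present in all libraries, with a sum between 92373 and 103607 cpm. Alb alone gave 52169 of the 88680 counts of this sum at 3 months. Single hepatocyte markers went both ways. Ttr had folds of 0.942, 0.632 and 0.757 at 9, 15 and 21 months against 3 months, Cps1 of 1.47, 0.896 and 1.14 and Tat of 1.45, 0.754 and 0.968. The 11 Kupffer cell and macrophage markers found in the files, cells that also express Apoe, summed to 870.4, 1033, 1040 and 1179 cpm in order of age. The single markers did not all follow this sum. For 10 of them with a mean count of at least 20, the median fold against 3 months was 1.34, 0.966 and 1.34. Cd5l, the most counted, had folds of 1.38, 1.24 and 1.34, while Clec4f had 1.02, 0.876 and 0.994. Sums of 8 stellate cell markers ran from 358.8 (3 months) to 631.5 cpm (15 months), of 8 sinusoidal endothelial markers from 853.3 to 905.3 cpm and of 5 erythroid markers from 1376 (21 months) to 2365 cpm (9 months). Single endothelial and erythroid markers went both ways. Stab2 had folds of 0.806, 0.425 (from 0.284 to 0.62) and 0.545 (from 0.394 to 0.744). Lyve1, with few counts (20, 49, 14 and 32), had 2.505, 1.16 and 2.02. At 9 months Hbb-b1 was at 1.79 and Alas2 at 0.703. For the small intestine, another source of Apoa4 and Apob, the sum of 6 markers lay between 59.6 and 85.6 cpm, nearly all from Fabp2, while Alpi, Sis and Cdh17 had 0 counts in every library. The 9 markers of exocrine pancreas summed to 80.5, 34.4, 19.0 and 262.2 cpm, with Try4 and Amy2a5 at 0. The 21 month pool, with the lowest Apoa4 and the highest Apoc1 level, thus had the most. The 9 month pool had less than the 3 month pool, and its clr level was lower for Apoa4 and higher for Apoc1. Lymphocyte markers (8 genes, at most 19.0 cpm, Ms4a1 and Trbc2 at 0) and cholangiocyte markers (5 genes, at most 41.8 cpm, Epcam at 0) had few counts. The part of these cells in the values of the 10 genes was not tested.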

How the data were processed

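The data are gene counts of 4 libraries, 1 per age. The authors pooled liver RNA, removed uncapped RNA, sequenced 35 base SOLiD reads on 1 lane and mapped them with the CLC Genomic workbench (mm9, similarity and length fraction 0.95). The deposited values are unnormalized counts for each gene symbol, and the submitters' processing notes name HTSeq without a version; the annotation used is not given in the sources used here. Between 72.2% and 76.7% of the alignment records were not unique, from 15.5% to 19.0% fell on no gene and up to 0.473% were ambiguous, and these rows were left out of all totals and tests. From the counts, clr levels, folds, variances and ratios were computed with Python 3.11.15 (numpy 2.4.6, scipy 1.17.1), and the age slope with edgeR 4.0.16 in R 4.3.3 (TMM, filterByExpr, Benjamini-Hochberg adjustment), with DESeq2 1.42.0 as an alternative. Alternatives were other scalings, filters, thresholds and leaving out each library. The code of the slope test and of the intervals was run on simulated counts. Those for the intervals held counting error only, and the simulated slopes were far steeper than those of the 10 genes. Neither run measures the spread between mice or the power for changes of the size seen here. Positions are from GENCODE M1 on NCBIM37. The 10 genes and all lists were chosen with earlier results of these data known. Named by rule were the 10 genes, the 3 most counted genes of each list and list genes past 1.5-fold the same way at 9, 15 and 21 months. Of these lists, 2 genes are not reported here.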

Additional observations from a re-analysis of the deposited data

How the results depend on the processing

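No paired analysis was possible because each age had 1 library. Leaving out 1 library at a time gave a median variance of clr of the 10 genes between 0.00682 and 0.00763, and 0 of the 10 with an age trend each time. The variance was 0.0149 with a pseudocount of 1. Past 1.5-fold at 15 against 3 months was 1 gene with library totals (Lcat) and 1 with a pseudocount of 1 (Mttp); in the other pairs none of the scalings moved the number. At a threshold of 0.32 on the log2 scale there were 3, 2, 2 and 2 genes at 9, 15 and 21 against 3 months and at 21 against 15 months, beside 39.9%, 50.3%, 34.7% and 38.3% of the genes with a mean count of at least 100, and at 2-fold 0 in each, beside 3.53%, 5.43%, 2.17% and 2.58%. Without a minimum on the mean count, 49.1%, 54.1%, 50.9% and 52.7% of all genes were past 1.5-fold in these pairs, and with a mean count of at least 100 it was 15.1%, 21.3%, 12.6% and 12.2%. Other centres of clr, chosen after seeing the data, moved the median level of the 10 genes from 4.84 to 3.53 (10 counts in every library) and to 5.61 (pseudocount of 1). The slope of Apoa1, 0.0054 on the log2 scale per year, was -0.00609 with DESeq2 size factors, -0.00597 with no filter and -0.00613 with DESeq2's Wald test. When each library was left out in turn, slopes ran from -0.0206 to 0.0608 for Apoa1 (-0.0162 without 9 months), from -0.394 to 0.274 for Apoa4, from -0.221 to 0.036 for Apoa5, from -0.16 to 0.0971 for Apob, from -0.0789 to 0.0021 for Apoc3, from -0.408 to 0.372 for Mttp and from -0.113 to 0.555 for Lcat. The direction turned without the 3 month library for Apob, Mttp and Lcat, without 9 months for Apoc3, without 9 or 15 months for Apoa1, and without 21 months for Apoa4 and Apoa5. The cause was not tested. Without the 3 month library the variance of Mttp was 0.0179, and without the 21 month library that of Apoa4 was 0.036. Among these alternatives 0 of 10 genes passed the trend test. The number of genes with an interval without 1 was, in an alternative chosen after seeing the data, between 4 and 8 in the 4 pairs with library totals, TMM or DESeq2 size factors. Depth limits Mttp, Lcat and Apoa4 most, and the spread between mice was not measured.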
